A study of Homo sapiens with 4 samples.

Results

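Long introns were examined as a class in the chromatin-bound RNA of K562 cells: annotated introns over 50 kb that were seen as spliced. An intron was included when its splice junction was annotated, carried a GT/AG motif and had at least 10 uniquely mapped reads summed over the 4 libraries. This gave 1803 long introns of 122281 annotated GT/AG junctions with at least 10 reads, and of 497511 junctions of any kind listed in any library. The selection used the reads of all 4 libraries together and not the difference between genotypes. The comparison set was the 14054 annotated introns of 50 kb or less, with the same minimum, in 1050 of the 1099 genes that held a long intron.

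The study sequenced RNA retained on chromatin from K562, an established erythroleukemia line, in 2 libraries of genotype WT and 2 of genotype SF3B1K700E. One treatment text covers all 4 libraries: doxycycline at 1 µg/ml was used to switch on the modified allele, and cells were collected on day 4. Whether the WT cells also carry an inducible allele, and whether each group is 1 clone or several, is not given in the sources used here. All libraries were fractionated with 25 µM α-amanitin, an inhibitor of RNA polymerase II, and passed through 3 rounds of removal of polyadenylated RNA before removal of ribosomal RNA. Elongation by RNA polymerase II in splicing-factor mutants is the theme named in the title of the series. Nothing in the labels says whether replicates were grown separately, so every p-value below measures the spread between these libraries, which may be technical.

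SF3B1 is a subunit of the U2 small nuclear ribonucleoprotein, which binds the branch point and helps to choose the 3′ splice site. The K700E substitution is known for the use of cryptic 3′ splice sites a short way upstream of the annotated one. An intron is removed only after the polymerase has passed its 3′ splice site, so a junction read across a very long intron comes from a polymerase that transcribed the whole intron. Very long introns lie mostly near the 5′ end of large genes, and some of these genes lie in common fragile sites, regions prone to breakage under replication stress.

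To show what was counted, the exon-exon joins of the most read, the longest and the most changed long introns are given here, together with the introns whose upstream acceptors are described further on. Each is 30 bases of GENCODE 29 transcript sequence (GRCh38), 5′ to 3′ on the transcript strand, and the capitals mark the last 3 bases of the upstream exon and the first base of the downstream exon, which flank the removed intron.
SND1 intron 10, 86.083 kb, chr7:127721401-127807483, plus strand: ggggagaacaccCAGGataagaacaagaaa
CPED1 intron 16, 94.572 kb, chr7:121142142-121236713, plus strand: tgtggttttgtgCAGGattgtggtttgctg
KMT2C intron 1, 76.95 kb, chr7:152358676-152435625, minus strand: gagagccagaaaGAAAcctcgaagtagggg
IMMP2L intron 4, 523.672 kb, chr7:110963566-111487237, minus strand: cattgtatcattGGTGtctcctaaaaaccc
DMD intron 1, 191.081 kb, chrX:33020201-33211281, minus strand: aagtagaggactGTTAtgaaagagaagatg
DMD intron 2, 170.318 kb, chrX:32849821-33020138, minus strand: gcacaattttctAAGTttgggaagcagcat
ITFG1 intron 8, 51.964 kb, chr16:47313824-47365787, minus strand: catttgcagactTTGAtggagatggacaca
PHTF2 intron 2, 53.307 kb, chr7:77840301-77893607, plus strand: tggtatcaaaagAAGAttggagcatatgat
PARD3 intron 1, 118.456 kb, chr10:34696420-34814875, minus strand: aaggccatcgccAAGGatccaaactactgg
SND1, CPED1 and PARD3 carry AG before and G after the removed intron, whereas DMD introns 1 and 2 do not. Across the 1801 long introns found in GENCODE 29, AG preceded the intron in 56.5%, G followed it in 45.0% and both held in 26.4%. In the shorter introns of the same genes these shares were 57.8%, 46.4% and 27.5%, so the exon side of long introns resembled that of short ones.

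The long introns ran from 50.009 to 523.672 kb with a median of 74.872 kb (quartiles 59.4445 and 102.317 kb). Reads per intron summed over the libraries ran from 10 to 1530, with a median of 48 and quartiles of 20 and 108. At the lower limits, 92 long introns had 10 or 11 reads, 143 annotated introns of that length with 8 or 9 reads lay outside, 48 members measured 50 to 51 kb, and 26 introns of 49 to 50 kb fell in the comparison set. A further 1766 annotated GT/AG introns over 50 kb had 1 to 9 reads and were not members. Only 755 of the 1803 had at least 10 reads in every library, and 1674 had at least 1 read in every library.

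Long introns sat at the start of their genes more often than short ones: 38.5% were a first intron, against 5.50% of the shorter introns of the same genes. Between coding exons lay 1198 of them, 369 lay in a 5′ UTR, 17 in a 3′ UTR and 217 in noncoding transcripts. Of the 1099 host genes 991 were protein coding, 723 held 1 long intron and 30 held 5 or more. The polarity gene PARD3B held the most, 11, followed by EYS, PVT1, TBC1D5 and ZBTB20 with 8 each, while DMD, which encodes dystrophin, held 7. Of the members, 29 belonged to 2 or 3 overlapping genes and 2 to no GENCODE 29 gene, and these 31 were left out of the comparisons within genes.

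The most read member was intron 10 of SND1, a Tudor-domain RNA-binding coactivator, with 363 and 455 reads in WT and 352 and 360 in SF3B1K700E. Intron 16 of CPED1 had 236 and 219 reads in WT and 304 and 345 in SF3B1K700E. Intron 1 of KMT2C, a histone H3 lysine 4 methyltransferase, had 258 and 212 in WT and 222 and 342 in SF3B1K700E. In RPM (reads per 1000000 annotated junction reads of the library) the SND1 intron was lower in both mutant libraries (87.1 and 71.8, against 107 and 131), while the groups overlapped for CPED1 and KMT2C.
The next most read were intron 1 of TNIK, a kinase of the Wnt pathway, with 1007 reads in all, intron 1 of JARID2, a cofactor of the PRC2 complex, with 985, an intron shared by FNIP1 and the overlapping gene AC008695.1 with 819, intron 3 of the splicing regulator CELF2 with 780 and intron 9 of the exocyst gene EXOC4 with 750. The FNIP1 reads are uncertain between the overlapping genes and were not tested. None of the other 7 of these 8 introns passed the test of use within the gene described below, where edgeR gave each an adjusted p of 1.

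Even the longest introns were seen as spliced, with reads that joined the exons on either side. Intron 4 of IMMP2L, a mitochondrial inner membrane peptidase gene at a fragile site, had 19 and 11 reads in WT and 20 and 22 in SF3B1K700E. Intron 5 of SMYD3 (397.263 kb), a lysine methyltransferase, had 6 and 13 in WT and 10 and 12 in SF3B1K700E.
In RPM, the groups overlapped in both. The noncoding gene AC099520.1 (505.785 kb) and the scaffold gene MAGI2 (445.813 kb) had only 21 and 10 reads in all, and the MAGI2 intron was the only junction of its gene with enough reads, so it could not be compared within it.

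Uniquely mapped junction reads numbered 3582592 and 3687513 in WT and 4304213 and 5322414 in SF3B1K700E, so the mutant libraries were deeper. The labels call the cells immortalized epithelial. Summed over 14 erythroid markers, annotated junction reads came to 3073 to 4820 RPM with no marker at 0 in all libraries. Summed over 12 epithelial markers they came to 305 to 421 RPM, carried by KRT8, KRT18 and KRT19, while CDH1, ESRP1, GRHL2 and KRT5 were at 0 in every library. Over 6 lymphoid markers they came to 884 and 1157 RPM in WT and 1735 and 1472 in SF3B1K700E, without overlap and nearly all from PTPRC, with CD79A and MS4A1 at 0. PTPRC, itself a host of a long intron, had a log2 change of 0.65 (edgeR adjusted p 0.307) and CD3D one of -2.30 (edgeR adjusted p 0.109), and the part of such cells in the host changes was not tested.

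Long introns took a slightly smaller part of spliced reads in both SF3B1K700E libraries. Of annotated GT/AG junction reads, 1.06% (95% Wilson interval 1.05 to 1.07) and 1.07% (1.06 to 1.08) lay over long introns in WT, and 1.02% (1.01 to 1.03) and 0.931% (0.922 to 0.939) in SF3B1K700E. Both mutant libraries were below both WT libraries, and SF3B1K700E replicate 2 was the lowest. The means were 1.07% ± 0.00899 and 0.975% ± 0.062 (SD, n = 2), a difference of -0.0923 percentage points with an exact 2-sided permutation p of 0.33, the smallest that 2 libraries against 2 allow.
The difference was -0.0484 without SF3B1K700E replicate 2 and -0.136 without SF3B1K700E replicate 1, so its size rests largely on SF3B1K700E replicate 2. Wilson intervals cover counting error only and treat reads as independent. The reads carry no molecular identifiers, so copies of a molecule cannot be told apart and the intervals may be too narrow.

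Pooled over the host genes, a long intron had on average fewer reads than a short one in every library, and the gap was slightly wider in the mutant. These means are not paired by gene, so genes with many or highly read introns weigh more. WT replicate 1 had 19.8 reads per long intron and 27.02 per shorter intron, and WT replicate 2 had 20.7 and 30.3. SF3B1K700E replicate 1 had 22.8 and 33.9, and SF3B1K700E replicate 2 had 25.9 and 39.7. On the log2 scale the ratio was -0.45 and -0.55 in WT and -0.57 and -0.62 in SF3B1K700E. The groups did not overlap, although WT replicate 2 lay closer to SF3B1K700E replicate 1 than to WT replicate 1. The difference between group means, -0.10 on the log2 scale (exact permutation p 0.33), was about as large as the distance between the WT libraries. It was -0.04 without WT replicate 1 and -0.15 without WT replicate 2.
Taken within each gene, the median of this ratio over 828 genes was -0.36 and -0.41 in WT and -0.45 and -0.45 in SF3B1K700E, again without overlap. This median, added after seeing the data, differed by -0.07 between the groups (exact permutation p 0.33).

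**Figure D1:**
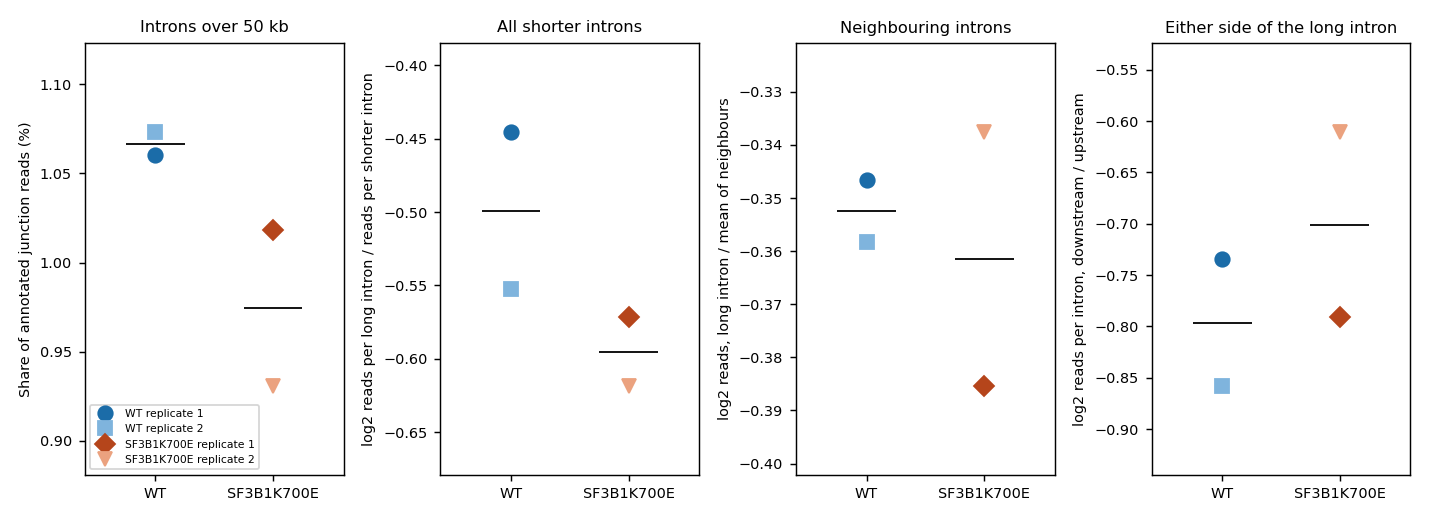
Values per library, 1 panel each: the share of annotated junction reads over introns over 50 kb (%), the log2 ratio of reads per long intron to reads per shorter intron of the same genes, the log2 ratio of long-intron reads to the mean of the introns on either side, and the log2 ratio of reads per intron downstream to upstream of the longest intron. Points are libraries and lines are means of 2. The groups are apart in the first pair of panels and overlap in the last pair.

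When reads were summed, SF3B1K700E had fewer over all 3 classes of long intron. Relative to 1000 reads over shorter introns of the same genes, introns of 50 to 100 kb had 68.6 and 63.7 reads in WT and 63.3 and 61.8 in SF3B1K700E, a log2 ratio of means of -0.08. Introns of 100 to 200 kb had 21.6 and 20.2 in WT and 19.7 and 18.5 in SF3B1K700E, a log2 ratio of -0.13. Introns over 200 kb, of which there were 69, had 2.39 and 2.10 in WT and 1.90 and 1.85 in SF3B1K700E, a log2 ratio of -0.26. The groups did not overlap in these 3 classes, and the exact permutation p was 0.33 in each.
Introns of 30 to 50 kb had a log2 ratio of -0.10, also without overlap, while those of 10 to 30 kb (-0.03) and up to 1 kb (0.01) overlapped. Those of 1 to 10 kb had a log2 ratio of 0.01 without overlap. The classes up to 50 kb make up the denominator, so the ratios of the largest of them are held small by construction. The median over introns did not follow the sum: over the 37 introns above 200 kb in genes with enough reads, the median log2 ratio to the gene's shorter introns was -1.26 and -1.47 in WT and -1.10 and -0.74 in SF3B1K700E, higher in the mutant by 0.44. For introns of 50 to 100 kb the median was lower in the mutant by 0.03 without overlap, and for 100 to 200 kb the groups overlapped. The sum is weighted to the most read introns, whereas the median weights introns with few reads alike, with 0.5 reads added before the ratio.

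**Figure D2:**
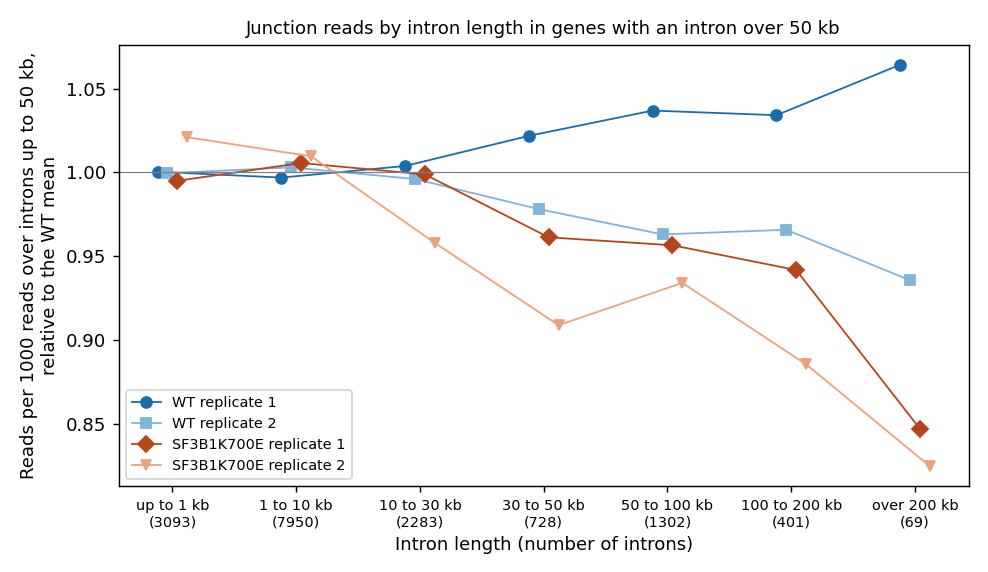
Junction reads by intron length in the host genes, per 1000 reads over introns of 50 kb or less and relative to the mean of the WT libraries, with 1 line per library and the number of introns under each class. The libraries lie together up to 30 kb and spread apart above it, where the WT libraries also differ from each other, at 1.06 and 0.936 for introns over 200 kb. The classes up to 50 kb sum to 1000 in every library, so the largest of them are held together by construction.

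The same direction was seen wherever the long intron stood in its gene. First introns had 3861 and 3787 RPM in WT and 3629 and 3292 in SF3B1K700E, a log2 ratio of means of -0.14. Second introns had 2149 and 2225 in WT and 2064 and 1923 in SF3B1K700E (-0.13), and later ones 4594 and 4718 in WT and 4488 and 4091 in SF3B1K700E (-0.12). The groups did not overlap in any of these 3 classes.
Shorter introns of the same genes depended on position: those that came first were lower in the mutant by about as much (log2 ratio -0.13, without overlap), second ones had -0.06 and later ones -0.03, both with overlapping groups. Long introns of 5′ UTRs had the lowest ratio of the annotation classes, with 1673 and 1780 RPM in WT and 1605 and 1409 in SF3B1K700E (-0.20, without overlap). Those of noncoding transcripts had 625 and 648 in WT and 681 and 546 in SF3B1K700E (-0.05), with overlap.

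Intron by intron, 412 of the 1803 long introns (22.9%) had fewer RPM in both SF3B1K700E libraries than in both WT libraries, and 277 (15.4%) had more. The background over all annotated junctions was 16.6% below and 19.5% above. Over the shorter introns of the same genes it was 19.7% below and 18.7% above. The excess of lower introns over the same genes' shorter introns was thus about 3 percentage points. Of these shorter introns 5.50% came first, against 38.5% of long ones. Among first introns, 22.8% of shorter ones were below and 14.7% above, close to 23.9% and 13.4% of long ones. Among second introns, 19.5% of shorter and 23.7% of long ones were below, and among later ones 19.6% and 21.6%. The excess was larger among the 487 long introns with at least 100 reads, of which 28.3% were below and 12.5% above. Shorter introns with as many reads had 20.3% below and 16.6% above, without a split by position. All these introns share the same 4 libraries, so the shares are descriptions.

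Compared only with their immediate neighbours, long introns showed no separation of the genotypes. For 458 members both adjacent introns of the transcript were short and read at least 10 times. The log2 ratio of long-intron reads to the mean of the neighbours was -0.35 and -0.36 in WT and -0.39 and -0.34 in SF3B1K700E, with overlapping groups and a difference of -0.01 (exact permutation p 1). The ratio to the upstream neighbour was -0.54 and -0.55 in WT and -0.55 and -0.49 in SF3B1K700E, also overlapping.
Against the downstream neighbour it was -0.12 and -0.14 in WT and -0.19 and -0.17 in SF3B1K700E, which did not overlap (difference -0.05, exact permutation p 0.33). These comparisons were added after seeing the data. In every library the long intron had fewer reads than the intron before it and a count closer to that of the intron after it.

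Short introns beyond the long intron had fewer reads than those before it in every library. In 417 genes with short introns on both sides of their longest intron, the upstream ones had 36.8 and 44.9 reads each in WT and 47.6 and 49.97 in SF3B1K700E. The downstream ones had 22.1 and 24.7 in WT and 27.5 and 32.7 in SF3B1K700E. The log2 ratio of downstream to upstream was -0.73 and -0.86 in WT and -0.79 and -0.61 in SF3B1K700E. The groups overlapped, with SF3B1K700E replicate 2 showing the smallest drop and WT replicate 2 the largest, and the difference of 0.10 had an exact permutation p of 0.67. Of these files only spliced reads were used, so polymerase positions and unspliced RNA inside the long introns were not analysed here.

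Few single introns changed in use relative to the rest of their gene. Of 1734 long introns that could be tested, edgeR called 2 higher in SF3B1K700E and 0 lower at an adjusted p under 0.05, whereas unadjusted p-values under 0.05 were found for 21 higher and 18 lower introns. Over all 116780 junctions tested, 0.0111% were called, 0.0103% as higher and 0.000856% as lower. A further 38 members were alone in their gene. The median log2 change within the gene was -0.03 for long introns, 0.01 for the shorter introns of the same genes and 0.01 for all junctions tested. With limma voom the counts were also 2 and 0, with 19 higher and 25 lower unadjusted.

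Both called introns were the first 2 of DMD, a gene in a common fragile site of chromosome X. They reached the minimum of 10 reads only through the SF3B1K700E libraries, and 4 introns of 50 kb or less in DMD (introns 10, 11, 34 and 35) were called higher in the same test, so the calls are not particular to long introns. DMD encodes dystrophin, which ties the actin cytoskeleton to the membrane of muscle fibres, and the gene is known to use several promoters, some of them far inside it. Intron 1 had 0 and 0 reads in WT and 6 and 9 in SF3B1K700E. Intron 2 had 0 and 0 in WT and 7 and 7 in SF3B1K700E. Both were thus seen only in the mutant libraries, with few reads.
With a floor of 3 reads over the WT group, intron 1 was at least 3.79-fold higher in RPM and at least 15.3-fold higher as a share of the reads of DMD. For intron 2 these bounds were 3.54-fold and 14.3-fold. The edgeR adjusted p was 0.00331 for intron 1 and 0.00352 for intron 2. Both calls were lost without WT replicate 1 (edgeR adjusted p 0.798 and 0.831) and without WT replicate 2 (1 and 1), and intron 1 was lost without SF3B1K700E replicate 2 (0.0615). With the replicate block both had an edgeR adjusted p of 0.0917.

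The reads of DMD as a whole moved the other way, and along the gene the genotypes differed by position. Introns are numbered on GENCODE 29 transcripts with 80 introns, and the parts below were chosen after their values were seen. Over introns 1 to 40 there were 12 and 10 reads in WT and 113 and 176 in SF3B1K700E. Over introns 41 to 50 there were 0 and 2 in WT and 4 and 9 in SF3B1K700E. Over introns 51 to 69 there were 646 and 798 in WT and 99 and 89 in SF3B1K700E.
Introns 70 to 80 had 65 and 80 reads in WT and 23 and 12 in SF3B1K700E. The 5′ part was therefore read almost only in the mutant, and the 3′ part mainly in WT, with no overlap between groups in any of these 4 parts.
Of the other long introns of DMD, intron 9 (52.717 kb) had 2 and 0 reads in WT and 5 and 6 in SF3B1K700E, and did not pass (edgeR adjusted p 0.376). Intron 54 (50.044 kb) had 63 and 88 in WT and 4 and 4 in SF3B1K700E, and intron 57 (120.219 kb) had 50 and 65 in WT and 7 and 4 in SF3B1K700E. Neither passed relative to the rest of the gene (edgeR adjusted p 0.803 and 1). Most reads of the gene in WT lay in the same part.

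**Figure D3:**
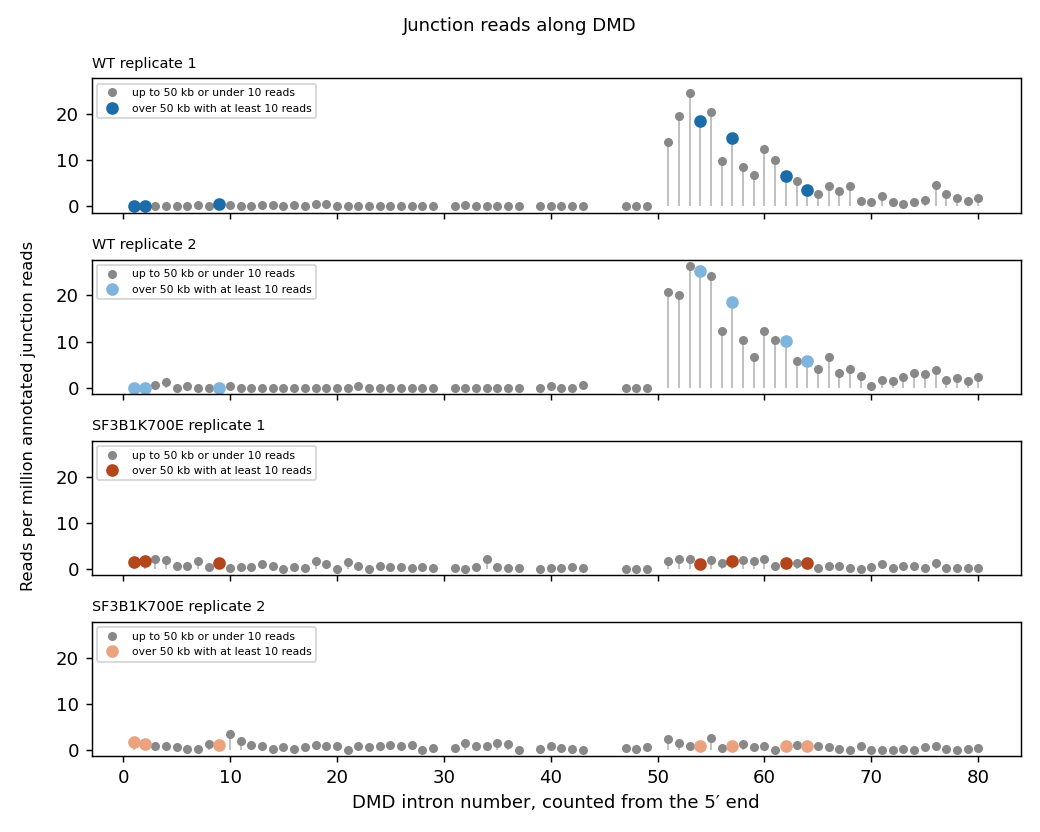
RPM over each intron of DMD with a read, by intron number from the 5′ end, in 1 panel per library. Coloured points are introns over 50 kb with at least 10 reads. In the WT libraries nearly all reads lie from intron 51 on, and in the SF3B1K700E libraries low values run along the whole gene.

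The next smallest p-values did not pass. Intron 1 of ANGPT1 (150.164 kb), which encodes the TIE2 ligand angiopoietin-1, had 5 and 10 reads in WT and 2 and 0 in SF3B1K700E (edgeR adjusted p 0.731). Intron 1 of CELF2 (147.322 kb) had 28 and 10 in WT and 7 and 8 in SF3B1K700E (edgeR adjusted p 1). The read counts of these introns are small, and the groups did not overlap in either.

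At the level of the whole gene, summed over all annotated junctions, 9 of 1073 tested host genes were higher in SF3B1K700E and 15 lower (edgeR quasi-likelihood test, adjusted p under 0.05). Together these were 2.24% of hosts, against 0.999% of all 10811 genes tested, of which 0.342% were higher and 0.657% lower. In 19 of the 24 no long intron had 10 reads in the lower group alone, so these genes became hosts through the group where they are high, and the excess over all genes is no finding about hosts. Unadjusted p-values under 0.05 were found for 48 higher and 96 lower hosts. The median log2 change was -0.05 over hosts and 0.00 over all genes. In bulk RNA, fewer cells of a kind and less RNA per cell cannot be told apart. All 24 called hosts had groups that did not overlap, and the smallest change was 1.24 in size on the log2 scale.
Without SF3B1K700E replicate 2 only 4 higher and 4 lower hosts were called, 8 of the 24 among them, and without SF3B1K700E replicate 1 there were 20 and 40. With 1 library in a group the fit takes the spread from the other group, and the lone library is assumed to vary like it. No called host changed sign in either fit. With the long introns left out of the gene sums, 8 higher and 13 lower were called.

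Among hosts above the median expression, 9 fell and 2 rose. Values are CPM, annotated junction reads per 1000000 after TMM scaling. COL23A1, a transmembrane collagen with 1 long intron, had 143 and 46.4 CPM in WT and 1.27 and 2.52 in SF3B1K700E (edgeR adjusted p 0.00245). Its long intron had 17 and 8 reads in WT and 0 and 0 in SF3B1K700E, so it became a member through the WT libraries alone. UNC5B, a netrin receptor, had 128 and 132 CPM in WT and 9.93 and 23.7 in SF3B1K700E, a log2 change of -2.94 (SE 0.37, edgeR adjusted p 0.00393).
The guanine nucleotide exchange factors DOCK10 and DOCK9 and the membrane skeleton gene EPB41L3 also fell. DOCK10, an exchange factor for Cdc42 and Rac, had 225 and 98.7 CPM in WT and 7.64 and 0 in SF3B1K700E (edgeR adjusted p 0.0129, not called by DESeq2 with an adjusted p of 0.587). DOCK9, a Cdc42 exchange factor, had 378 and 347 in WT and 158 and 151 in SF3B1K700E, a log2 change of -1.24 (SE 0.22, edgeR adjusted p 0.0279). EPB41L3, the membrane skeleton protein 4.1B, had 113 and 96.2 in WT and 23.9 and 14.9 in SF3B1K700E, a log2 change of -2.43 (edgeR adjusted p 0.00393).
DMD fell as a whole, from 225 and 272 CPM to 61.6 and 60.5 (log2 change -2.03, SE 0.24, edgeR adjusted p 0.00342). RIPOR3 fell by 2.03 on the log2 scale and the sorting receptor gene SORCS1 fell by 1.36, with edgeR adjusted p of 0.00319 and 0.0325. AIG1, which encodes a membrane hydrolase of fatty acid esters, fell by 1.39 (edgeR adjusted p 0.0484, the weakest of the calls). AIG1 and DOCK9 were not called with the replicate block (edgeR adjusted p 0.0513 and 0.0526). Without SF3B1K700E replicate 2, DMD, DOCK9, EPB41L3, SORCS1 and AIG1 were not called (edgeR adjusted p 0.064, 0.207, 0.0675, 0.247 and 0.298), with log2 changes of -1.999, -1.19, -2.11, -1.18 and -1.20.

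The risen hosts above the median expression were ELMO1 and ARHGAP26. ELMO1, the partner of DOCK proteins in Rac activation, holds 4 long introns, and their summed reads were 5 and 6 in WT and 43 and 62 in SF3B1K700E. At the gene level it had 13.9 and 10.6 CPM in WT and 104 and 81.0 in SF3B1K700E, a log2 change of 2.91 (SE 0.30, edgeR adjusted p 0.00236). ARHGAP26, a GTPase-activating protein, had 7.72 and 15.8 CPM in WT and 55.0 and 78.3 in SF3B1K700E, a log2 change of 2.50 (SE 0.37, edgeR adjusted p 0.011).
The 3 long introns of ARHGAP26 moved with the gene, with 3 and 4 reads in WT and 25 and 46 in SF3B1K700E. ARHGAP26 was not called without SF3B1K700E replicate 2 (edgeR adjusted p 0.0913).
ADCY2, an adenylate cyclase, lay below the median expression and is named because of its values. It had 0 reads in both WT libraries and 469 reads in SF3B1K700E over all its junctions, at least 118-fold higher with a floor of 3 reads over the WT group (edgeR adjusted p 0.000694). Its 64.374 kb intron 4 was read 22 and 32 times in SF3B1K700E and became a member through these reads alone.

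**Figure D4:**
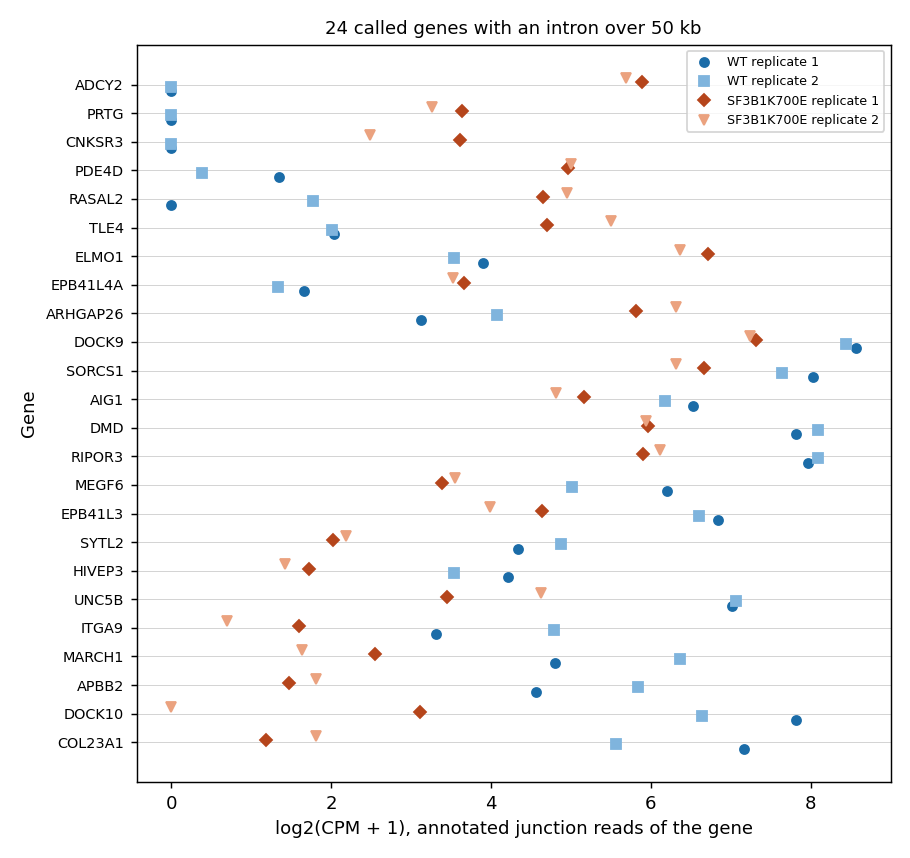
Gene level of the 24 called host genes as log2(CPM + 1) of annotated junction reads, with 1 point per library. Genes are ordered by log2 change from the most lowered at the bottom to the most raised at the top, and in each gene the WT points lie on one side of the SF3B1K700E points.

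Genes of common fragile sites hold many of the longest introns. Of the 49 genes on the list 19 were tested hosts, and edgeR called 1 higher, PDE4D, and 1 lower, DMD, with a median log2 change of -0.13 over the 19, against -0.05 over all hosts and 0.00 over all genes. The background was 0.999% of all genes and 2.24% of hosts called. PDE4D, a cAMP phosphodiesterase, had 1.54 and 0.304 CPM in WT and 30.3 and 31.1 in SF3B1K700E, a log2 change of 5.01 (SE 0.53, edgeR adjusted p 0.00236). Its 3 long introns had 1 and 0 reads in WT and 24 and 29 in SF3B1K700E, so they became members only through the SF3B1K700E libraries. The 71 long introns of the list together had 746 and 787 RPM in WT and 717 and 580 in SF3B1K700E, without overlap, a log2 ratio of means of -0.24, against -0.13 for all long introns. Without DMD, a comparison added after seeing the data, the remaining 64 had 702 and 728 RPM in WT and 708 and 572 in SF3B1K700E, which overlapped, with a ratio of -0.16.
The most read of the list were SND1, EXOC4, VPS13B, FAF1, TBC1D5 and MAD1L1, none of which was called. The long introns of SND1 had 184 and 181 RPM in WT and 139 and 125 in SF3B1K700E, with the gene level lower too (log2 change -0.47, edgeR adjusted p 0.506). Those of EXOC4 had 109 and 115 in WT and 120 and 105 in SF3B1K700E, and those of VPS13B, a lipid-transfer protein, 83.1 and 107 in WT and 113 and 88.9 in SF3B1K700E, both with overlapping groups. Those of FAF1 had 65.4 and 99.7 in WT and 82.6 and 48.3 in SF3B1K700E, so its libraries varied more within than between the groups. Those of the Rab GTPase-activating gene TBC1D5 had 42.3 and 42.5 in WT and 38.3 and 32.3 in SF3B1K700E, lower in both mutant libraries, and those of the spindle checkpoint gene MAD1L1 overlapped.

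Among other hosts grouped by function, 40 signalling-enzyme hosts were tested, of which edgeR called 1 higher (PDE4D) and 0 lower, with 3 and 3 at an unadjusted p under 0.05 and a median of -0.14, a share near that of all hosts (2.24%). Of 41 transcription and chromatin hosts 0 were called by edgeR, with 0 higher and 3 lower unadjusted and a median of -0.05.
Factors of RNA polymerase II elongation and of long-gene expression were looked at over all genes, since few of them are hosts. Of 46 tested, edgeR called 0 in either direction, with 1 higher and 1 lower unadjusted at 0.05, and the median log2 change was 0.16, against 0.00 over all genes. The 4 with the highest level were SFPQ and HNRNPU, RNA-binding proteins of long transcripts, SUPT6H, a histone chaperone of elongating polymerase, and SNRNP70, the U1 subunit. SFPQ had 950 and 874 CPM in WT and 965 and 1234 in SF3B1K700E (edgeR adjusted p 0.793), and HNRNPU had 814 and 1006 in WT and 1082 and 1258 in SF3B1K700E (edgeR adjusted p 0.683). SUPT6H had 982 and 851 in WT and 709 and 995 in SF3B1K700E (edgeR adjusted p 0.956), and SNRNP70 overlapped between groups as well.

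Unannotated acceptors inside the long introns took a larger share of reads in both SF3B1K700E libraries. Of all reads leaving the 1709 donors of long introns, 4.43% (95% Wilson interval 4.24 to 4.64) and 4.63% (4.44 to 4.83) ended at an unannotated acceptor inside the intron in WT. In SF3B1K700E 5.74% (5.53 to 5.94) and 5.01% (4.83 to 5.19) did. The groups did not overlap, with means of 4.53% ± 0.141 and 5.37% ± 0.514 (SD, n = 2) and an exact permutation p of 0.33. The difference of 0.838 percentage points was 0.475 without SF3B1K700E replicate 1.
Shorter introns of the same genes had 0.796% and 0.758% in WT and 1.08% and 0.934% in SF3B1K700E, also without overlap. Long introns therefore had the larger share in every library, and in relative terms both classes were higher in the mutant. The files list unannotated junctions of up to 50 kb from 1 read on, but longer ones only from 2, 3 or 4 reads, which lowers the share in long introns. Counting only junctions with at least 4 reads in a library, a setting added after seeing the data, long introns had 2.17% and 2.30% in WT and 3.04% and 2.75% in SF3B1K700E, and shorter ones 0.322% and 0.313% in WT and 0.525% and 0.466% in SF3B1K700E. A fixed minimum of reads, in this setting as in the listing, is met by more junctions in a deeper library. Both SF3B1K700E libraries were deeper, and the part of depth in the difference between genotypes was not tested.
By length, this share went from 0.127% and 0.108% in WT in introns up to 1 kb to 15.01% and 16.7% in introns over 200 kb. In introns over 200 kb the SF3B1K700E libraries had 14.97% and 13.7%, both below the WT values. The most read interior acceptor of all, in AC099520.1, lies in this class. It took 117 and 141 reads in WT and 83 and 105 in SF3B1K700E. The annotated introns of the class had 906 and 894 reads in WT and 904 and 1031 in SF3B1K700E. The share without this acceptor was not computed, so neither its level nor the order of the genotypes can be taken as general to the class.

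**Figure D5:**
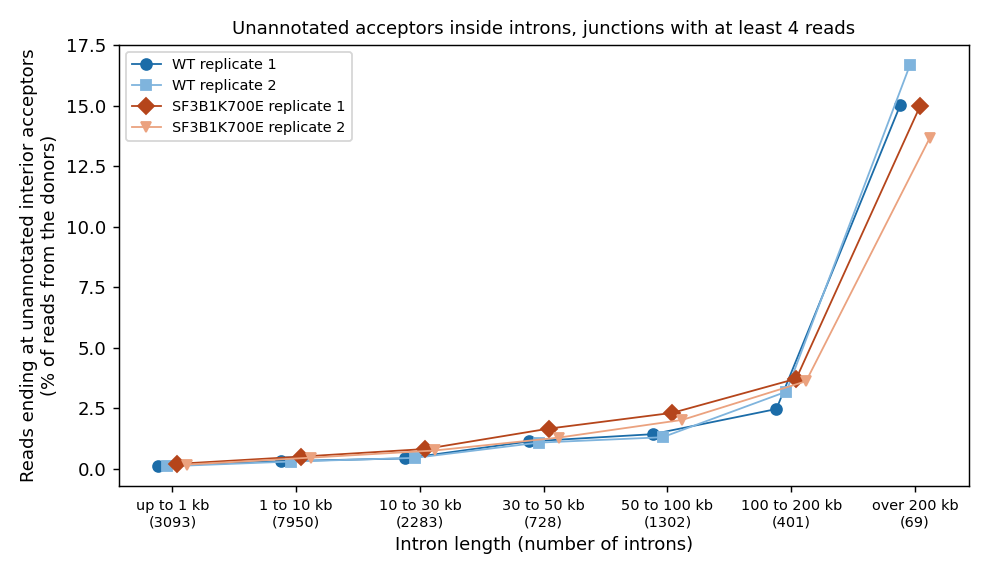
Share of reads leaving a donor that end at an unannotated acceptor inside the intron (%), counting junctions with at least 4 reads in the library, by intron length in the host genes, with 1 line per library. The share grows with length in all 4 libraries, and the SF3B1K700E lines lie above the WT lines in every class except introns over 200 kb. That class holds the most read interior acceptor, in AC099520.1, and the SF3B1K700E libraries were deeper.

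In the window 10 to 30 nt upstream of the annotated acceptor, long introns held 8 unannotated sites. These took 0.00477% and 0.0182% of donor reads in WT (2 and 8 reads) and 0.0937% and 0.0904% in SF3B1K700E (46 and 50 reads). The groups were far apart relative to the spread within each, and the exact permutation p was 0.33. Shorter introns of the same genes had 376 such sites, at 13463 donors against 1709. These took 0.0302% and 0.0379% in WT and 0.121% and 0.0933% in SF3B1K700E. The listing from more reads above 50 kb lowers the numbers for long introns. With at least 4 reads in a library, long introns had 0% and 0.0114% in WT and 0.0652% and 0.0814% in SF3B1K700E. Shorter ones then had 0.00845% and 0.0139% in WT and 0.0694% and 0.0576% in SF3B1K700E. This setting was added after seeing the data, and deeper libraries meet it more often.

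Sites in 3 genes carried 87 of the 106 reads (82.1%). In ITFG1, an integrin-alpha FG-GAP repeat protein, the site lay 13 nt upstream of the end of intron 8 and had 2 and 5 reads in WT and 19 and 26 in SF3B1K700E. Its share of the reads at both acceptors was 4.76% and 13.2% in WT and 32.2% and 41.9% in SF3B1K700E. In PHTF2, the site 16 nt upstream had 0 and 0 reads in WT and 13 and 7 in SF3B1K700E, a share of 16.9% and 7.0% in the mutant.
In PARD3, a cell polarity scaffold, the site 21 nt upstream had 0 and 0 reads in WT and 3 and 12 in SF3B1K700E, a share of 6.52% and 25.5%. All 3 were higher in both mutant libraries than in both WT libraries. None had 10 reads in the WT libraries alone. All 3 therefore entered the test below only through the SF3B1K700E reads, and their direction is no separate support. Unannotated junctions of 50 to 100 kb are listed from 2 reads and those of 100 to 200 kb from 3, so up to 1 read at PHTF2 and 2 at PARD3 could be unlisted in each WT library, and no fold is given.
None passed the test within donor clusters, with an edgeR adjusted p of 0.513 for ITFG1, 0.0566 for PHTF2 and 0.206 for PARD3. Over all 897 tested junctions leaving donors of long introns edgeR called 0 higher and 0 lower, with 22 and 6 at an unadjusted p under 0.05. The background was 0.141% of 23391 junctions, 0.137% higher and 0.00428% lower, and limma voom called 0 and 0, with 17 and 14 unadjusted.
The other sites had few reads. One 17 nt upstream in CCDC91 had 0 and 0 in WT and 3 and 3 in SF3B1K700E, and one in the noncoding gene MIR2052HG had 0 and 3 in WT and 2 and 0 in SF3B1K700E. ELOVL6, a fatty acid elongase, had 0 and 0 in WT and 3 and 0 in SF3B1K700E at a site 21 nt upstream. LRBA and BCR had 3 and 2 reads in all, each from 1 SF3B1K700E library.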

How the data were processed

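Junction reads were taken from 4 libraries. Per the file headers, the authors aligned with STAR 2.7.10a to GRCh38.p12, with 353424 junctions of GENCODE 27 in the index, 1887 more from GENCODE 22, and introns up to 589824 nt alignable. The deposited values used are raw counts of uniquely mapped reads per junction, with counts of multiply mapped reads as an alternative. The longest overhang, the other deposited column, was not used. How reads were trimmed is not given in the sources used here. Intron lengths are end minus start plus 1, and GENCODE 29 gave genes and intron numbers.

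Library values were compared by an exact 2-sided permutation test over the 6 assignments of libraries. Genes were tested with edgeR 4.0.16 (quasi-likelihood test, TMM, filterByExpr), junctions with its diffSpliceDGE over all annotated junctions of a gene or all junctions of a donor, each with Benjamini-Hochberg adjustment over the whole table at 0.05, in R 4.3.3. Standard errors are the absolute log2 change divided by the square root of the F statistic of the test. Each test was tried on simulated counts. Of 100 features changed 4-fold and 100 changed 8-fold, the gene test recovered 99% and 100%, with 20 false calls. The test of intron use recovered 38% and 59%, with 14 false calls. In both, false calls were a larger part of all calls than the threshold of 0.05 allows. The test of acceptor use recovered 46% of 100 changed 8-fold and 64% of 100 changed 16-fold, with 5 false calls. The simulated junction counts took their dispersion from the gene test. Alternatives were limma 3.58.1, DESeq2 1.42.0, other scalings, length limits of 30 and 100 kb, minima of 1 and 20 reads, multiply mapped reads, a replicate block and leaving out each library.

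Members, lists and tests were chosen with earlier results of these data known. Named introns were the 8 most read, the 5 longest, those called and the 6 with the smallest p, of which 1 is not reported here, nor is 1 gene list. Named hosts were called genes above the median expression without overlap, the called and the 6 most read of the fragile-site list, and the 4 highest elongation factors. Named upstream acceptors were the called and the 6 most read, with the remaining 2 added so that all 8 are given.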

Additional observations from a re-analysis of the deposited data

How the results depend on the processing

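All 5 library-level differences kept their sign and stayed at an exact permutation p of 0.33 or more under every alternative run, and the design allows no smaller p. With each library left out in turn, the share of reads over long introns differed by -0.136 to -0.0484 percentage points, the log2 ratio of long to shorter introns by -0.15 to -0.04, the log2 ratio of downstream to upstream by 0.01 to 0.19, the upstream acceptor share by 0.0738 to 0.0873 and the interior acceptor share by 0.475 to 1.20. With introns over 100 kb the groups overlapped in the log2 ratio (-0.04, exact permutation p 0.67) and in the interior acceptor share (0.545, exact permutation p 0.67). Without DMD, an alternative added after seeing the data, the share differed by -0.0881 and the log2 ratio by -0.09.

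The replicate numbers do not pair the libraries in the labels, and deviations of same-numbered libraries correlated at -0.23 over 10811 genes. With the replicate block edgeR called 16 higher and 16 lower host genes, 0 long introns higher within genes (18 at an unadjusted p under 0.05), and the differences in library values were unchanged by construction. With the crossed pairing, added after seeing the data, edgeR called 29 higher and 53 lower hosts and 2 long introns higher within genes.

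DESeq2 called 13 higher and 24 lower hosts, 22 of the 24 reported calls among them. Leaving out each library gave 4 to 20 higher and 4 to 40 lower hosts. For long introns higher within genes it gave 0 to 2, and a minimum of 20 reads gave 0 (edgeR, 11 unadjusted), since both DMD introns have fewer reads. At donors of long introns a minimum of 20 reads gave 1 higher junction, and leaving out each library gave 0 to 1 lower, the 1 without WT replicate 2. With multiply mapped reads 1 zero-length pair was counted. With 2 libraries per group, and a median of 10 to 13 reads per long intron and library, changes of single introns, large ones included, can be missed at this depth.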

Other observations

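Long introns also contained exons that the authors' annotation does not list, seen as a junction from the long intron's donor to an interior acceptor and a junction from a donor at most 500 nt further on to the long intron's acceptor. There were 678 such pairs in 456 long introns, with a median of 106.5 nt between the junctions, and 104 in 91 introns had at least 5 reads on each side. The entry junctions of these 104 had 229 and 259 RPM in WT and 265 and 222 in SF3B1K700E, so the groups overlapped. The genes named here were chosen after their values were seen, and inclusion is the mean of the entry and exit reads over that mean plus the reads joining the full intron. In STON2, an endocytic adaptor gene, a 171 nt exon inside a 92.248 kb intron was included in 49.4% and 40.95% of reads in WT and 46.6% and 55.1% in SF3B1K700E. The STON2 values average unlike counts. This exon was entered by 54 and 30 reads in WT and 41 and 55 in SF3B1K700E. It was left by 22 and 13 in WT and 27 and 31 in SF3B1K700E. In PARD3B a 143 nt exon inside a 278.869 kb intron was included in 19.05% and 17.8% in WT and 18.2% and 18.6% in SF3B1K700E. These similar values average unlike counts. The exon was entered by 9 and 10 reads in WT and 9 and 18 in SF3B1K700E, and left by 31 and 16 in WT and 23 and 23 in SF3B1K700E. In SND1 a 112 nt exon inside intron 10 was included in 2.55% and 2.57% in WT and 5.88% and 5.39% in SF3B1K700E, without overlap. In the noncoding gene AC099520.1 a 70 nt exon inside the 505.785 kb intron was entered by 117 and 141 reads in WT and 83 and 105 in SF3B1K700E but left towards the annotated acceptor by only 5 and 9 in WT and 10 and 8 in SF3B1K700E. The full intron was joined by 3 and 6 reads in WT and 8 and 4 in SF3B1K700E.

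Recursive splicing removes some long introns in steps and leaves pairs of junctions with no exon between them. Only 1 pair of junctions joined at a single interior position was listed in a long intron, in APBA2 (58.038 kb), and none had uniquely mapped reads on both junctions. Such steps are transient, and unannotated junctions over 50 kb with 1 read are not listed, so these files limit what can be seen of them.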
